A study of Rattus norvegicus with 9 samples.

Results

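This account follows 9 genes of lysophosphatidate signaling and phosphatidate dephosphorylation in the rat lumbar spinal cord: Enpp2, Lpar1, Lpar4, Lpar6, Plpp1, Plpp2, Plpp3, Lpin1 and Lpin2. They were taken by name from a table of 34890 loci in which each name stood for 1 locus. Total RNA of L3-L6 spinal cord from wild-type Sprague Dawley rats was sequenced in 3 groups of 3 animals each. Per the study's methods the rats were male and the RNA came from the ipsilateral side of the cord. The JA group was operated on as a sham and given saline by mouth. The SNI group had spared nerve injury, a lesion of branches of the sciatic nerve used as a model of neuropathic pain, and also received saline. The PLM group had the same injury and was given paeoniflorin at 20.65 mg/ml with liquiritin, which the labels give as 3.98, 3.99 and 3.100 mg/ml for the 3 animals, although the study's methods describe a single concentration for this group. No injured rat given liquiritin or paeoniflorin alone, and no uninjured rat given the drugs, was among these samples. Values are TPM, relative transcript abundances corrected for gene length, so that levels of different genes can be compared, with the same sum in every sample. Sequencing depth is unknown from such values, so errors here are the spread between animals.

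Lysophosphatidate is a lipid mediator made outside cells, mainly when autotaxin, the secreted enzyme encoded by Enpp2, removes choline from lysophosphatidylcholine. It acts through G protein-coupled receptors such as Lpar1, Lpar4 and Lpar6, and it is inactivated at the cell surface by lipid phosphate phosphatases encoded by Plpp1, Plpp2 and Plpp3. Phosphatidate, its relative with a second acyl chain, is turned into diacylglycerol inside cells by the lipins Lpin1 and Lpin2. In the spinal cord, lysophosphatidate and Lpar1 are known from studies of pain after nerve injury, and Enpp2 is known as a gene of oligodendrocytes.

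Enpp2 had the highest level of the 9 genes, with a mean of 253 TPM over the 9 samples, followed by Lpar1 at 105 TPM. Plpp1 and Plpp3 came next at 37.2 and 33.9 TPM, then Plpp2 at 15.8 TPM and Lpin1 at 13.4 TPM. Lpin2 at 5.82 TPM, Lpar6 at 2.90 TPM and Lpar4 at 0.569 TPM were the lowest. The ranges over the 9 samples overlapped between Plpp1 and Plpp3, between Plpp3 and Plpp2 and between Plpp2 and Lpin1, and did not overlap between the other neighbours in this order. Plpp3 varied most among the genes above 1 TPM: its highest sample was 3.17 times its lowest, against 1.31 times for Lpar1 and 1.32 times for Plpp2. Lpar4 did not reach the mean of 1 TPM required for testing, so 8 of the 9 genes were tested in each comparison.

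**Figure D1:**
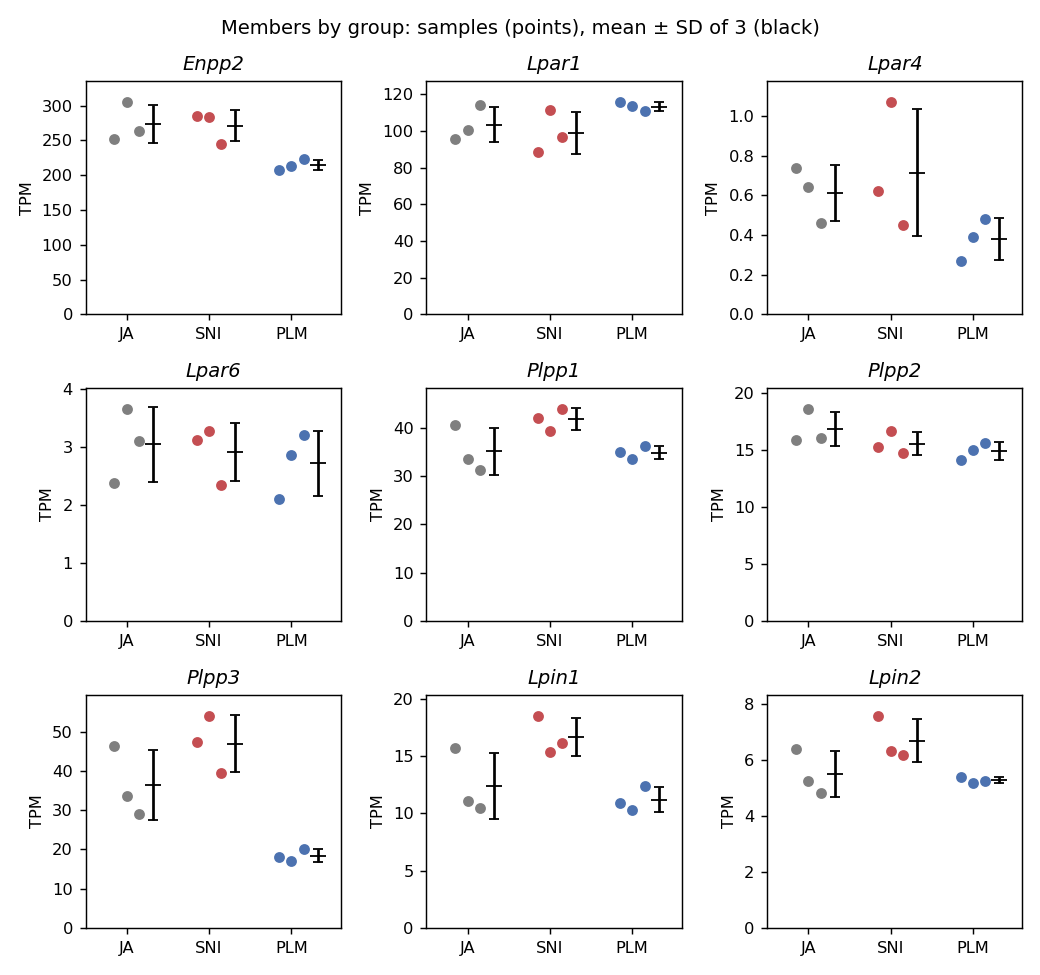
TPM (vertical axes, starting at 0) of the 9 genes in each sample of the JA, SNI and PLM groups, with replicates 1 to 3 from left to right in each group and the mean ± SD of the 3 in black. The 3 PLM samples lie between 17.05 and 20.21 TPM for Plpp3, below all 6 other samples, while the groups overlap for Lpar6 and Lpar4.

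Markers of spinal cord cells were present as the tissue label states: Mbp of myelin ranged from 31362 to 39893 TPM, Snap25 of neurons from 606 to 1121 TPM and Slc6a5, the transporter of glycinergic neurons, from 25.8 to 48.9 TPM. Of 9 markers of ependyma and choroid plexus with a row, Otx2 was at 0 in all 9 samples and the other 8 had means from 0.27 to 17.5 TPM. The summed level of 6 Schwann cell markers ran from 64.7 to 6315 TPM and was highest in JA replicate 3, SNI replicate 2 and PLM replicate 3, so counts of genes were also taken without these samples. The 13 mitochondrial protein genes took 31.3 to 32.8% of all TPM in the PLM group, 23.7 to 26.1% in the SNI group and 25.3 to 32.8% in the JA group. In the comparison of PLM with SNI the fitted log2 fold change was negative for 85.0% of the 15474 loci tested, with a median of -0.21. In this comparison each tested member is therefore given on values as deposited and on values from which the median of each sample over the loci tested had been subtracted (median-centred), where the median over all loci was 0.04. In bulk tissue, fewer cells of a type and less RNA per cell cannot be told apart.

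The effect of the drug combination on injured animals was addressed by comparing the PLM group with the SNI group. Plpp3, Lpin1 and Enpp2 fell as deposited, and Plpp3 alone among the 9 genes was also called after median-centring. Thus 3 of the 8 genes tested were called lower at an adjusted p under 0.05 (limma on log2(TPM + 1), Benjamini-Hochberg adjustment over all loci), where 13.6% of all loci were. None of the 8 was called higher, against 0.246% of all loci, and 2 further members, Plpp1 and Lpin2, had an unadjusted p under 0.05, which makes 5 of 8 at that threshold against 37.1% of all loci. After median-centring 1 of 8 was called lower and 0 higher, with 0.685% and 0.129% of all loci, and 4 of 8 had an unadjusted p under 0.05, against 16.9%. At the thresholds used in the study, an unadjusted p under 0.05 with a log2 fold change beyond 1, only Plpp3 was lower, as deposited (1.42% of all loci) and median-centred (0.659%). The median log2 fold change over the 8 genes was -0.27 as deposited and -0.02 median-centred, close to the medians of all loci given above.

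**Figure D2:**
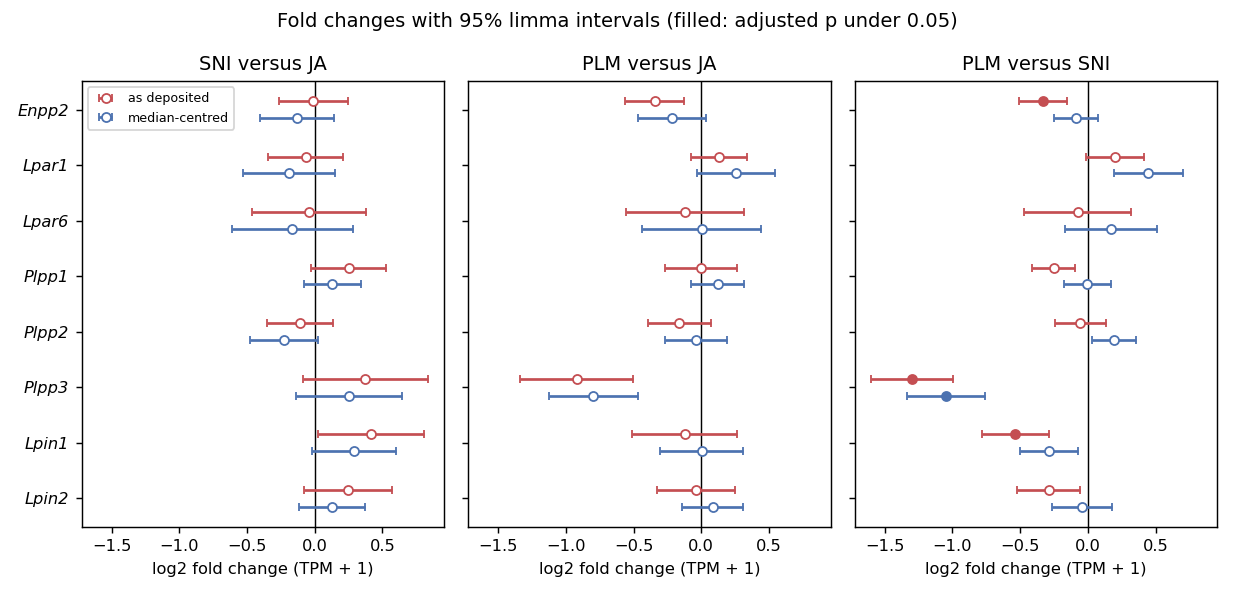
Log2 fold changes on log2(TPM + 1) with 95% intervals from limma (horizontal axes) for the 8 genes tested in the 3 comparisons, as deposited in red and median-centred in blue, filled where the adjusted p was under 0.05. Filled points stand only in the comparison of PLM with SNI, for Plpp3 on both scales and for Lpin1 and Enpp2 as deposited.

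Among the surface phosphatases Plpp3 carried the largest difference. Plpp3 was at 47.33, 54.02 and 39.47 TPM in the SNI animals and at 17.98, 17.05 and 20.21 TPM in the PLM animals. Every PLM sample lay below every SNI sample, and the mean of the PLM group was 0.392 times that of the SNI group. The log2 fold change was -1.30 (SE 0.13, adjusted p = 0.00557, limma, n = 3 per group), with a 95% interval of -1.60 to -0.99. After median-centring it was -1.05 (SE 0.12, adjusted p = 0.0278, limma), again without overlap. The call as deposited was kept when any 1 of the 6 samples was left out, with adjusted p between 0.00816 and 0.0352, whereas the median-centred call was lost whichever of the 6 samples was left out, with adjusted p between 0.0517 and 0.126. Without SNI replicate 2 and PLM replicate 3, the samples richest in Schwann cell markers, the fold change was -1.26 as deposited (adjusted p = 0.067, limma) and -0.98 median-centred (adjusted p = 0.202), and none of the 8 genes was called on either scale.

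The JA samples held Plpp3 at 46.40, 33.62 and 29.08 TPM. JA replicate 1 lay inside the SNI range and the other 2 lay below it, so the JA and SNI groups overlapped, while all 3 JA samples lay above the PLM samples. Between SNI and JA the log2 fold change was 0.37 (SE 0.19, adjusted p = 0.614, limma). Between PLM and JA it was -0.92 (SE 0.17, unadjusted p = 0.00127, adjusted p = 0.254, limma), with a 95% interval of -1.34 to -0.51, and -0.80 after median-centring (adjusted p = 0.331).

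Markers of astrocytes moved with Plpp3. Of 15 astrocyte markers, 14 fell in PLM compared with SNI as deposited (13.6% of all loci) and 10 after median-centring (0.685%), with median log2 fold changes of -1.28 and -1.04. Gfap, the intermediate filament of astrocytes, went from 588 to 241 TPM, and Slc1a2, their main glutamate transporter, from 40.2 to 9.86 TPM, while Sox9 was 4.58 TPM in SNI and 3.07 TPM in PLM (adjusted p = 0.195, limma). The summed level of the 15 markers was 3142 to 3768 TPM in the PLM group, 5846 to 7060 TPM in the SNI group and 4303 to 6953 TPM in the JA group, and no marker was at 0 throughout. JA replicate 3 was the lowest JA sample for this sum and also for Plpp3. The log2 level of Plpp3 minus the mean log2 level of the 15 markers was -1.22 ± 0.10 (SD, n = 3) in SNI, -1.22 ± 0.24 in PLM and -1.17 ± 0.30 in JA. Relative to these markers the groups therefore overlapped, although Plpp3 itself did not overlap between PLM and SNI. The part of astrocyte content in the Plpp3 result was not tested.

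**Figure D3:**
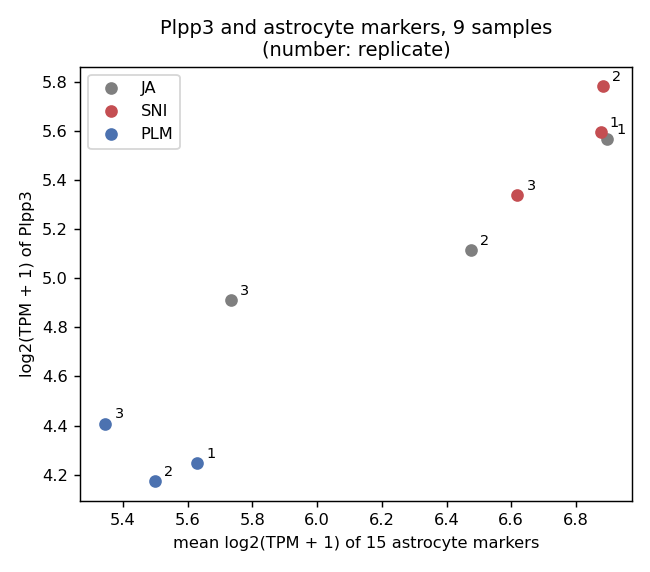
Level of Plpp3 (vertical axis, log2(TPM + 1)) against the mean level of 15 astrocyte markers (horizontal axis, same unit) in the 9 samples, coloured by group and numbered by replicate. The 3 PLM samples stand at the low end of both axes, between 4.17 and 4.41 for Plpp3. The 3 SNI samples stand higher, and JA replicate 1 lies above SNI replicate 3 on both axes.

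The bases upstream of Plpp3 and Lpin1 are shown because these 2 phosphatases were called in the comparison of PLM with SNI. RefSeq promoter entries on build GRCr8, matched by symbol, were found for 6 of the 9 genes, with none for Plpp2, Enpp2 and Lpar1. Each sequence is the 250 bases before the gene start, 5′ to 3′ on the strand of the gene, at chr5:125155750-125155999 on the plus strand for Plpp3 and chr6:45108943-45109192 on the minus strand for Lpin1. Capitals mark matches on either strand to TATAA (the core of the TATA box), CCAAT (the CCAAT box), GGGCGG (a GC box), CACGTG (an E-box) and TGACG (a part of the cAMP response element), and no match overlapped another.
Plpp3: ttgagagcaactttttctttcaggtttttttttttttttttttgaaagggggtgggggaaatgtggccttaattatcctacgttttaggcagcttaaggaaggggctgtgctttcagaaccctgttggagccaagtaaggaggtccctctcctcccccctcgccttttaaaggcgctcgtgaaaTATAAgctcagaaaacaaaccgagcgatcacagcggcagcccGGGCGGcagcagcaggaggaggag
Lpin1: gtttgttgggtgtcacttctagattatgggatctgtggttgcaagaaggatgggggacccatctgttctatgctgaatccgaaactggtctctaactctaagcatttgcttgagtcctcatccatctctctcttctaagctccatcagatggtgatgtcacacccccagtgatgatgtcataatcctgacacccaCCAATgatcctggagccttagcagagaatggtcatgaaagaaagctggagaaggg
Plpp3 held 1 TATAA, beginning 66 bases before the start, and 1 GGGCGG, beginning 24 bases before it, motifs present in 24.0% and 30.5% of the 33469 rat promoters of the same length. Lpin1 held 1 CCAAT, beginning 55 bases before the start, as did 34.0% of all promoters with at least 1 match. Neither held CACGTG or TGACG, which stood in 5.59% and 18.2% of promoters. The 2 genes shared no match to these motifs. These are matches of letters only, and no binding was measured.

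Plpp1, which like Plpp3 dephosphorylates lysophosphatidate outside the cell, was at 41.92, 39.34 and 43.82 TPM in SNI and at 34.92, 33.41 and 36.08 TPM in PLM. The PLM samples lay below the SNI samples without overlap. Their log2 difference was -0.25 (SE 0.07), and the adjusted p of 0.0523 (limma) missed the threshold, which it passed only where loci under 1 TPM in any sample were left out (adjusted p = 0.0478). After median-centring the difference was -0.0059, with a 95% interval of -0.18 to 0.17. In JA, Plpp1 was at 40.52, 33.47 and 31.16 TPM and overlapped both other groups.

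Plpp2 was at 15.27, 16.70 and 14.71 TPM in SNI, 14.10, 15.03 and 15.66 TPM in PLM and 15.91, 18.60 and 16.06 TPM in JA. The log2 fold change of PLM against SNI was -0.06 as deposited (adjusted p = 0.617, limma) with a 95% interval of -0.24 to 0.13. Median-centred it was 0.19 (adjusted p = 0.230), with the PLM samples above the SNI samples, so its direction depended on the scale. Against JA, the PLM samples lay below all 3 JA samples, by -0.16 on the log2 scale (adjusted p = 0.559, limma).

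The surface phosphatases were also summed. The sum of Plpp1, Plpp2 and Plpp3 was 104 ± 6.04 TPM (SD, n = 3) in SNI, 68.1 ± 3.38 TPM in PLM and 88.3 ± 13.5 TPM in JA. Plpp3 made up 45.3, 49.1 and 40.3% of this sum in the SNI animals, 26.8, 26.0 and 28.1% in the PLM animals and 45.1, 39.2 and 38.1% in the JA animals, so the PLM samples were the lowest 3 of the 9, and SNI and JA overlapped. Plpp1 stood at 0.886, 0.728 and 1.11 times Plpp3 in SNI, at 1.94, 1.96 and 1.79 times in PLM and at 0.873, 0.996 and 1.07 times in JA. These ratios within a sample do not change with the scaling of that sample, and since Plpp3 itself chose this view they were not tested.

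Enpp2, the source of autotaxin, was at 284.76, 283.88 and 245.53 TPM in SNI and at 208.09, 213.61 and 222.73 TPM in PLM. The groups did not overlap, and the mean of PLM was 0.792 times that of SNI. The log2 fold change was -0.33 (SE 0.07, adjusted p = 0.0381, limma, n = 3 per group) as deposited and -0.09 (SE 0.07, adjusted p = 0.568) after median-centring, where the groups overlapped. Leaving out 1 sample ended the call in 5 of 6 cases, with adjusted p between 0.0669 and 0.127, and kept it without SNI replicate 3 (adjusted p = 0.0366). In JA, Enpp2 was at 252.73, 304.96 and 263.05 TPM, above all PLM samples. After median-centring over the loci tested in this pair JA and PLM still did not overlap, but after centring over the loci of all 9 samples JA replicate 1 (4.525 on the log2 scale) lay just below PLM replicate 1 (4.527). Against JA the log2 fold change of PLM was -0.34 (unadjusted p = 0.00761, adjusted p = 0.342, limma), or -0.22 median-centred (unadjusted p = 0.0769, adjusted p = 0.533), and that of SNI was -0.01 with a 95% interval of -0.26 to 0.24.

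Of 12 oligodendrocyte markers, 0 were called in PLM against SNI with limma as deposited (13.6% of all loci lower) or median-centred (0.685%). They summed to 50719 to 51671 TPM in PLM, 47001 to 49235 TPM in SNI and 49622 to 57176 TPM in JA, and none was at 0. This sum is mostly Mbp, whose mean was 32721 TPM in SNI and 36472 TPM in PLM. Over the 9 samples the mean log2 level of the 12 markers had a Pearson's r of 0.882 with Enpp2, given as a description. As deposited, 8 of the 12 markers had a negative fold change, against 85.0% of all loci. Their median was -0.12, against -0.21 over all loci. At an unadjusted p under 0.05, 3 of the 12 passed, against 37.1% of all loci: Mbp with a fold change of 0.16, and Mag and Myrf with -0.14 and -0.24. After median-centring all 12 fold changes were positive, where 42.4% of all loci were negative. Their median was 0.13, unlike the fold change of Enpp2. Of the 12, 5 passed at an unadjusted p under 0.05, against 16.9% of all loci. PLM lay above SNI without overlap for 6 of the 12 (14.1% of all loci). The 5 markers of oligodendrocyte precursors summed to 43.3 to 46.1 TPM in PLM, 50.4 to 66.7 TPM in SNI and 58.8 to 65.6 TPM in JA, and none was at 0. By this sum PLM lay below both other groups, as for Enpp2. The highest of the 5 was Enpp6, with means of 16.98 TPM in PLM, 27.84 TPM in SNI and 34.35 TPM in JA. Its log2 fold change in PLM against JA was -0.98, while the others ran from -0.35 to 0.46. Bmp4 went the other way from the sum, at 0.80 in PLM against SNI and 0.46 in PLM against JA. With limma 0 of these 5 were called in PLM against SNI as deposited (13.6% of all loci lower) or median-centred (0.685%). As deposited, 3 had an unadjusted p under 0.05 (37.1% of all loci) and 4 were lower without overlap (41.9%). After median-centring these counts were 0 (16.9%) and 0 (9.73%), and 1 was higher without overlap (14.1%). The part of oligodendrocyte or precursor content in the Enpp2 result was not tested.

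Lpar1, the receptor with the highest level, was at 88.44, 111.30 and 96.87 TPM in SNI, 115.62, 113.42 and 110.64 TPM in PLM and 95.82, 100.73 and 113.87 TPM in JA. It was the only gene of the 8 with a positive fold change in PLM against SNI as deposited, 0.20 (SE 0.09, adjusted p = 0.156, limma), with a 95% interval of -0.02 to 0.42 and with overlap. It was 0.12 without SNI replicate 1 and 0.29 without SNI replicate 2. Median-centred, all PLM samples lay above all SNI samples, at 0.45 (SE 0.11, unadjusted p = 0.00481, adjusted p = 0.124, limma). Between SNI and JA the difference was -0.07 (95% interval -0.34 to 0.21), and between PLM and JA 0.13 (-0.07 to 0.34), with median-centred values of -0.19 (-0.53 to 0.15) and 0.26 (-0.03 to 0.54).

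Lpar6 was at 3.12, 3.28 and 2.35 TPM in SNI, 2.11, 2.86 and 3.21 TPM in PLM and 2.38, 3.66 and 3.11 TPM in JA. The 3 groups overlapped throughout, and the interval of the PLM against SNI difference ran from -0.47 to 0.32 as deposited and from -0.17 to 0.51 median-centred. In RefSeq the locus of Lpar6 overlaps Rb1, which stood at 15.6 to 20.7 TPM, and that of Plpp1 overlaps Mtrex, at 9.94 to 14.2 TPM. Plpp3 overlaps LOC120102940, and Lpin2 overlaps LOC120094877. How reads were divided between overlapping genes is not given in the sources used here.

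Lpar4 was at 0.62, 1.07 and 0.45 TPM in SNI, 0.27, 0.39 and 0.48 TPM in PLM and 0.74, 0.64 and 0.46 TPM in JA. When loci of any level were tested it differed by -0.30 on the log2 scale in PLM against SNI (adjusted p = 0.246, limma), a scale on which changes of so low a gene are understated. The groups overlapped.

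The balance of autotaxin and receptor transcripts against Plpp3 was read within each sample. Enpp2 was 6.02, 5.26 and 6.22 times Plpp3 in SNI, 11.6, 12.5 and 11.0 times in PLM and 5.45, 9.07 and 9.05 times in JA. Lpar1 was 1.87, 2.06 and 2.45 times Plpp3 in SNI, 6.43, 6.65 and 5.47 times in PLM and 2.06, 3.00 and 3.92 times in JA. For both ratios the 3 PLM samples were the highest of the 9. Both divide by Plpp3, which was already lowest in these samples, so this order is not a result separate from that of Plpp3. Enpp2 was 3.22, 2.55 and 2.54 times Lpar1 in SNI, 1.80, 1.88 and 2.01 times in PLM and 2.64, 3.03 and 2.31 times in JA. PLM lay below both other groups, and SNI and JA overlapped. An exact permutation test of 3 against 3 samples cannot give a two-sided p below 0.1, so none is given.

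Lpin1, a phosphatidate phosphatase of the glycerolipid pathway that also acts as a coregulator of transcription, was at 18.50, 15.34 and 16.10 TPM in SNI and at 10.87, 10.28 and 12.37 TPM in PLM. The groups did not overlap, and PLM stood at 0.671 times SNI. The log2 fold change was -0.54 (SE 0.10, adjusted p = 0.0279, limma, n = 3 per group), and -0.29 (SE 0.09, adjusted p = 0.194) after median-centring, still without overlap. Leaving out PLM replicate 1, PLM replicate 2, SNI replicate 1 or SNI replicate 3 ended the call as deposited, with adjusted p between 0.0661 and 0.102. In JA, Lpin1 was at 15.69, 11.04 and 10.47 TPM. JA replicate 1 lay inside the SNI range, and the other 2 lay inside the PLM range. The astrocyte markers given above moved in the same direction between PLM and SNI. The 11 neuron markers summed to 2351 to 2518 TPM in PLM, 2436 to 2992 TPM in SNI and 1602 to 2635 TPM in JA, with none at 0. Between PLM and SNI all 11 had a negative fold change as deposited (85.0% of all loci) and 4 after median-centring (42.4%). With limma 0 were called as deposited (13.6% of all loci lower) or median-centred (0.685%). At an unadjusted p under 0.05, 4 passed as deposited, against 37.1% of all loci, and 0 after median-centring, against 16.9%. Between SNI and JA all 11 were positive on both scales, where 23.6% of all loci were negative as deposited and 51.4% median-centred. With limma 0 were called on either scale. At an unadjusted p under 0.05, 1 passed as deposited, against 7.1% of all loci, and 1 after median-centring, against 4.83%. The part of these cell types in the results for Lpin1, Lpin2 and Plpp1 was not tested.

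Lpin2 followed the same order at a lower level, with 7.58, 6.34 and 6.17 TPM in SNI, 5.40, 5.18 and 5.26 TPM in PLM and 6.41, 5.25 and 4.82 TPM in JA. PLM and SNI did not overlap as deposited, and differed by -0.29 on the log2 scale (SE 0.10, adjusted p = 0.0869, limma). Median-centred it was -0.04, with a 95% interval of -0.26 to 0.18. Lpin1 was 2.44, 2.42 and 2.61 times Lpin2 in SNI, 2.01, 1.99 and 2.35 times in PLM and 2.45, 2.10 and 2.17 times in JA. JA overlapped both other groups in this ratio.

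Counted over the 8 genes, 5 had PLM samples all below the SNI samples as deposited (Plpp3, Lpin1, Enpp2, Lpin2 and Plpp1), against 41.9% of all loci. After median-centring 2 genes did so (Plpp3 and Lpin1), against 9.73% of loci, and 2 had PLM samples all above the SNI samples (Plpp2 and Lpar1), against 14.1% of loci.

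The effect of the injury was addressed by comparing SNI with JA. None of the 8 genes passed at an adjusted p under 0.05 with limma, and neither did any of the 15557 loci tested (0% lower and 0% higher). At an unadjusted p under 0.05 only Lpin1 passed, 1 of 8 genes, where 7.1% of all loci did. Its log2 fold change was 0.41 (SE 0.16, unadjusted p = 0.0407, adjusted p = 0.614, limma), with a 95% interval of 0.02 to 0.80. After median-centring 0 of 8 passed at an unadjusted p under 0.05, against 4.83% of all loci, and Lpin1 stood at 0.29 (unadjusted p = 0.0599, adjusted p = 0.889, limma), with an interval of -0.016 to 0.60. Plpp1, Lpin2 and Plpp3 had fold changes of 0.25, 0.25 and 0.37 with intervals that included 0. No gene of the 8 was without overlap between SNI and JA, whereas 12.1% of all loci had SNI above JA and 1.66% had it below. The median over the 8 genes and over all loci was 0.12 in both cases.

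The treated injured animals were also set against the sham group, a comparison that shares samples with the other 2. None of the 8 genes passed at an adjusted p under 0.05 with limma, where 0.013% of the 15349 loci tested were lower and 0.00652% higher. At an unadjusted p under 0.05, Plpp3 and Enpp2 passed, 2 of 8 genes, against 11.8% of all loci, and after median-centring only Plpp3 did, 1 of 8 against 9.98%. PLM lay below JA without overlap for Plpp3, Enpp2 and Plpp2, 3 of 8 genes against 15.7% of loci, and after median-centring for Plpp3 and Enpp2, 2 of 8 against 6.93%, where Enpp2 depended on the loci that set the median, as given above. For Lpin1, Lpin2 and Plpp1 the fold changes were -0.12, -0.041 and -0.0021, with intervals of -0.51 to 0.27, -0.33 to 0.25 and -0.27 to 0.26, and their sign turned after median-centring (0.0024, 0.083 and 0.12). The 7 meninges and fibroblast markers with a row summed to 67.9 to 135 TPM in PLM and 147 to 371 TPM in JA. With limma 0 of the 7 were called, while 5 had an unadjusted p under 0.05 as deposited (11.8% of all loci) and 1 after median-centring (9.98%). The part of such tissue in these results was not tested.

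The wider pathway was read from 4 lists of genes. Enzymes that supply lysophosphatidate and phosphatidate, such as acyltransferases, phospholipases D and diacylglycerol kinases, made up 29 names, of which 22 were tested. In PLM against SNI 8 of the 22 fell as deposited (13.6% of all loci) and 0 after median-centring (0.685%), where the smallest adjusted p was 0.0851, and their median log2 fold change was -0.33 as deposited and -0.08 median-centred. The 3 with the smallest adjusted p were acyltransferases that turn lysophosphatidate into phosphatidate: Agpat3 went from 47.9 to 31.5 TPM (log2 fold change -0.59, adjusted p = 0.0116, limma), Agpat5 from 28.7 to 19.4 TPM (-0.55, adjusted p = 0.0156) and Agpat1 from 84.0 to 62.0 TPM (-0.43, adjusted p = 0.0166). Agpat4, of the same family and the highest gene of the list at 177 TPM over all samples, had means of 179 TPM in SNI and 164 TPM in PLM (-0.13, adjusted p = 0.115). At an unadjusted p under 0.05, 16 of the 22 passed as deposited, against 37.1% of all loci, and 4 after median-centring, against 16.9%.

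Of the other receptors of lysophosphatidate or candidate receptors, 0 of 6 reached 1 TPM, the highest being Lpar5 with a mean of 0.517 TPM. Among 10 other lipid phosphatases and relatives tested of 11, 0 were called in PLM against SNI with limma as deposited (13.6% of all loci lower) or median-centred (0.685%). Of the 10, 2 had an unadjusted p under 0.05 as deposited, against 37.1% of all loci, and 1 after median-centring, against 16.9%. Their median fold change was -0.15 as deposited and 0.09 median-centred. The highest of them, Plppr2, a relative known to lack phosphatase activity, had means of 22.1 TPM in SNI and 19.4 TPM in PLM (adjusted p = 0.394, limma).

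Of 13 tested genes that couple these receptors to the cell interior, 4 fell as deposited (13.6% of all loci) and 0 after median-centring (0.685%). Of the 13, 7 had an unadjusted p under 0.05 as deposited, against 37.1% of all loci, and 2 after median-centring, against 16.9%. The G protein subunit Gnai2 went from 200 to 150 TPM (log2 fold change -0.41, adjusted p = 0.0176, limma), Gna13 from 11.5 to 8.28 TPM (-0.43, adjusted p = 0.0421) and Gna11 from 30.5 to 24.5 TPM (-0.31, adjusted p = 0.0437). Rhoa, the highest gene of this list at 295 TPM over all samples, had means of 302 TPM in SNI and 276 TPM in PLM (adjusted p = 0.141). In the comparisons with JA, 0 genes of these lists were called with limma. At an unadjusted p under 0.05 in SNI against JA, 5 of 22 supply enzymes and 0 of 13 coupling genes passed as deposited (7.1% of all loci), and 2 and 1 after median-centring (4.83%). In PLM against JA 6 of 22 and 2 of 13 passed as deposited (11.8% of all loci), and 3 and 1 after median-centring (9.98%).

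**Figure D4:**
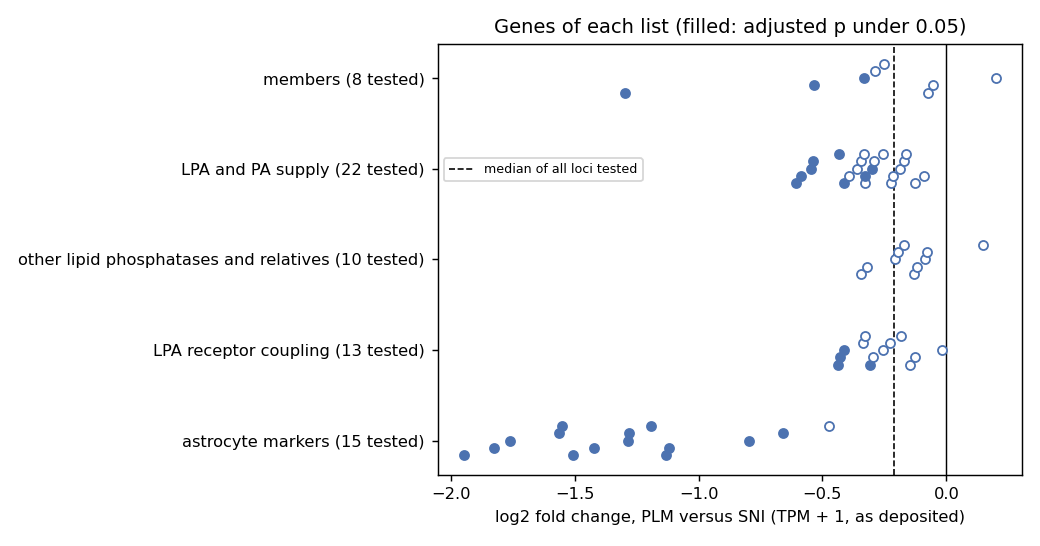
Log2 fold change of PLM against SNI on values as deposited (horizontal axis, log2(TPM + 1)) for each tested gene of the members, of 3 pathway lists and of the astrocyte markers, filled where the adjusted p was under 0.05, with the median over all loci as a dashed line. The vertical offset of points within a row has no meaning. Plpp3 at -1.30 is the only member in the range of most astrocyte markers, and the supply and coupling genes lie between -0.61 and -0.02.

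The genes whose levels ran most like each member over the 9 samples were listed as a description, by Pearson's r of log2(TPM + 1). The samples share their groups and the scale of TPM, so high values are common: 729 of 9662 candidate genes had an r above 0.9 with Plpp3. The nearest to Plpp3 were Fads1 (r = 0.991), Arsa (0.989) and Fads2 (0.988), where Fads1 and Fads2 encode fatty acid desaturases and Arsa the sulfatide-degrading arylsulfatase A. For Lpin1 they were Wbp2 (0.984), Cerk (0.979) and Mtch2 (0.978), and for Lpin2 Pi4ka (0.987), Pelp1 (0.979) and Slc1a1 (0.978). For Plpp1 they were Psme3ip1 (0.985), Herpud1 (0.969) and Tmem163 (0.969). Enpp2 was nearest to AABR07068161.1 (0.985), Ado (0.975) and Lig3 (0.966), and Plpp2 to Afap1l1 (0.953), Nipal4 (0.946) and AABR07054000.1 (0.940). Lpar1 and Lpar6 had fewer near neighbours, 2 genes each above 0.9, with Anp32b (0.916), Tpt1 (0.900) and Mt-co2 (0.888) for Lpar1 and Atp1b3 (0.939), Fbxo8 (0.924) and Tmod3 (0.888) for Lpar6.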

How the data were processed

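RNA of L3-L6 spinal cord was sequenced in 9 rats, 3 each in the JA, SNI and PLM groups, and samples were grouped by their titles. The authors deposited 1 table of TPM values for 34890 loci. Per the labels and the study's methods, they ran fastp (0.19.5), CASAVA, HISAT2 and StringTie. The processing notes name a human genome build although the identifiers are those of rat, so the build and annotation are not settled here. TPM keeps no read depth, so neither depth nor counting error could be given, and the study's DESeq2 fit could not be repeated. No per-sample column was left unused.

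Pairs of groups were compared with limma (3.58.1, R 4.3.3) on log2(TPM + 1), with no covariate and with the prior variance following the mean. Loci averaging under 1 TPM across the 6 samples of a pair were left out. Benjamini-Hochberg adjustment ran over all loci tested, and an adjusted p under 0.05 was a call. Intervals are 95%, from limma, and errors are SD or SE over 3 samples, which the labels call biological replicates. Median-centred values had the median log2 of the tested loci subtracted in each sample. The fit was tested on simulated data.

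All 9 members were named. From each pathway list the 3 called genes of smallest adjusted p per direction and the gene of highest mean TPM were named, and for each tested member the 3 genes of highest Pearson's r among those with a mean of at least 5 TPM. Members, lists and tests were chosen with earlier results of these data known. In the lists, 1 supply enzyme (Liph) had no row, and Gnas, listed for more than 1 locus, was not followed. Alternatives were other scalings, filters, pseudocounts and fits, and leaving out samples. Promoter sequences came from RefSeq (GRCr8).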

Additional observations from a re-analysis of the deposited data

How the results depend on the processing

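Plpp3 stayed lower in PLM than in SNI in all 17 settings run on values as deposited or rescaled, with log2 fold changes from -1.41 to -1.05 (the latter median-centred), and was called in 15 of them. It lost the call with the median-centred replicate block and, as a check added after seeing the data, without the sample of highest Schwann cell marker sum in each group. The count of called members in PLM against SNI, 3 as deposited, was 1 (Plpp3) after median-centring, after quantile normalization, after rescaling without the 13 mitochondrial genes and with all 9 samples in 1 fit, 0 without the samples of highest Schwann cell marker sum, and 1 to 2 when single samples were left out. The median-centred count, 1, was 0 in all other median-centred settings run for it: with the replicate block, without any single sample and without the samples of highest Schwann cell marker sum. The count was 3 with the pseudocount of 0.1, 2 with no filter, which lost Enpp2 (adjusted p = 0.0555, limma), and 4 with at least 1 TPM in every sample, which added Plpp1 (adjusted p = 0.0478). What caused these differences was not tested. In SNI against JA and in PLM against JA no member was called in any setting run.

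The replicate numbers did not pair the samples: deviations of same-numbered samples correlated at -0.046 to 0.13 over loci. With the replicate block the count in PLM against SNI was 1 as deposited (Plpp3, adjusted p = 0.0382, limma) and 0 median-centred, where the fold change of Plpp3 was -1.05 (adjusted p = 0.136).

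The median log2 fold change of the members moved beyond its spread between samples in these settings. In PLM against SNI it was -0.024 median-centred, with or without the block, -0.0398 after quantile normalization and -0.14 without mitochondrial genes. In SNI against JA it was -0.0025 median-centred, with or without the block, and -0.0082 after quantile normalization. In PLM against JA it was 0.0037 median-centred, with or without the block, -0.0071 after quantile normalization and -0.21 without the samples of highest Schwann cell marker sum.

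Signs turned only for fold changes that were not called, 37 values in all. In PLM against SNI, Plpp2 became 0.19 median-centred (with or without the block) and after quantile normalization, and 0.085 without mitochondrial genes, and Lpar6 became 0.17, 0.14 and 0.036. In PLM against JA, Plpp1 became 0.12, 0.086 and 0.055 and Lpin2 0.083, 0.086 and 0.0088 in these 3 settings, Lpin1 became 0.0024 median-centred and 0.00053 after quantile normalization, and Lpar6 0.0049 median-centred. When single samples were left out, Lpar6 ran from -0.18 to 0.0497 in PLM against SNI, and median-centred Plpp1 from -0.043 to 0.045 and Lpin2 from -0.087 to 0.022. In SNI against JA the ranges were -0.065 to 0.0702 for Enpp2, -0.16 to 0.0088 for Lpar1, -0.17 to 0.065 for Lpar6 and -0.0702 to 0.19 for Lpar4 without the filter. In PLM against JA they were -0.0802 to 0.10 for Plpp1, -0.24 to 0.0057 for Lpar6, -0.22 to 0.047 for Lpin1 and -0.12 to 0.058 for Lpin2.

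With 3 animals per group and no read depth, small differences could not be resolved.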
